A study of Mus musculus with 4 samples.

Results

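The cells described here were chosen from dissociated mouse testis by a score over 5 genes of early meiotic prophase, Prdm9, Meioc, Dmc1, Meiob and Ugt8a, named set A. A cell belonged where its mean log-transformed level of set A, z-scored over all kept cells, was above 1 and above its z-scores for 6 other marker sets, B to G, that run from pachytene spermatocytes to condensing spermatids. This chose 5517 of 57727 kept cells, 9.56%. The values of these genes chose the cells, so set A levels are a description and carry no test.

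RNA of single testis cells had been sequenced in droplets with the version 3 kit for 3′ ends of 10x Genomics, from mice under 2 conditions, a high-fat diet (HFD) with 2 libraries and a normal diet (ND) with 2 libraries. The strain, age, genotype and length of feeding are not given in the sources used here, and neither is whether each library came from a separate mouse, so p-values measure the spread between these samples, which may be technical. The libraries held 13561 to 15290 barcodes and 143748262 to 154221188 UMIs (unique molecular identifiers, each a counted RNA molecule). Any pair of libraries shared 42 to 65 kept barcodes and at most 1 barcode of a set A cell.

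In the first meiotic prophase a germ cell that has replicated its DNA breaks its chromosomes on purpose, pairs the homologues and repairs the breaks by recombination. In leptotene the chromosome axes form and SPO11 cuts the DNA. In zygotene the synaptonemal complex zips the axes together while recombinases such as DMC1 drive strand exchange, and in pachytene pairing is complete and the X and Y chromosomes are silenced. These steps are made by proteins such as SYCP3 on the axis, SYCP1 and TEX12 in the zipper, and PRDM9, which marks where breaks fall.

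The cells did not form a uniform group of leptotene and zygotene spermatocytes by these markers. A total of 3004 members (54.4%) carried a single UMI over all 5 genes, and in 2630 of these it came from Meioc, which encodes a partner of the RNA helicase YTHDC2 needed to carry on through meiotic prophase. One marker was detected in 4260 members (77.2%), 2 markers in 1010 (18.3%) and 3 or more in 247 (4.48%). Meioc was detected in 91.6% of members. The recombination factor Meiob was detected in 22.7%, the recombinase Dmc1 in 8.08%, the hotspot methyltransferase Prdm9 in 2.95% and the ceramide galactosyltransferase Ugt8a in 2.61%. For these reasons the members are called set A cells below.

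Meioc UMIs were also found outside set A. At least 1 was found in 69.8% of set B cells (chosen by Piwil1, Pou2f2, Mybl1 and Pou5f2) and in 37.2% of set C cells (Aurka, Aurkb, Cdk1 and Ccna1). In set G cells, chosen by genes of condensing spermatids, 8.37% had one, at median depths of 3357.5 to 4153 UMIs per library, against 2901.5 to 3245 in set A cells. In cells of no set 4.66% had one, at medians of 1626.5 to 2244 UMIs. Free RNA in droplets gives UMIs in cells that do not express a gene, and its part in these shares and in the choice of members was not tested. Set B cells were deeper, with medians of 16496.5 to 21747.5 UMIs. Set A cells with over 10000 UMIs were 19.97% of the members but gave 59.7% of their UMIs, so summed levels lean on these deep cells. The score divides by depth, and a single UMI in a shallow cell passed the limit: the 114 members with z-scores from 1 to 1.1 had a median of 5050 UMIs and 110 of them had 1 marker, and the 83 cells from 0.9 to 1 had a median of 5576 UMIs and 79 had 1 marker.

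Each library held set A cells at a share between 8.64% and 10.8% of kept cells. HFD 1 had 1333 members (9.84%, exact 95% binomial interval 9.35 to 10.4), HFD 2 had 1549 (10.8%, 10.3 to 11.3), ND 1 had 1318 (8.64%, 8.20 to 9.10) and ND 2 had 1317 (9.03%, 8.57 to 9.51). Both HFD libraries were above both ND libraries. The intervals cover counting error only.

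The share was higher in HFD by 0.22 on the log2 scale (SE 0.06), with an adjusted p of 0.0099 from edgeR's quasi-likelihood test over 8 classes of cells. The rise was not particular to set A. In the same test sets B and C rose more, by 0.34 and 0.53. Sets D, E and F and cells of no set fell, by 0.29, 0.33, 0.16 and 0.21. All of these passed at an adjusted p under 0.05, and set G (-0.08) did not. The shares are parts of 1 total, so they do not move independently. The mean shares of set A cells were 10.3% ± 0.670 (SD, n = 2) in HFD and 8.84% ± 0.275 in ND. The call ended where members needed at least 2 of the 5 markers, with a log2 ratio of 0.034 and an adjusted p of 0.756 by the same test. It also ended without ND replicate 1 (0.19, adjusted p = 0.086). The members with 3 or more markers ran the other way as a share of kept cells, at 0.362% and 0.397% in HFD 1 and HFD 2 against 0.479% and 0.466% in ND 1 and ND 2 (two-sided exact permutation p = 0.333, the smallest that 2 against 2 libraries can give). Scrublet called 2.04% and 5.26% of these cells doublets in HFD 1 and HFD 2 and 9.59% and 11.8% in ND 1 and ND 2, and the part of doublets in the difference was not tested. Among set A cells those with 3 or more markers made up 3.68% in each HFD library and 5.54% and 5.16% in ND 1 and ND 2.

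**Figure D1:**
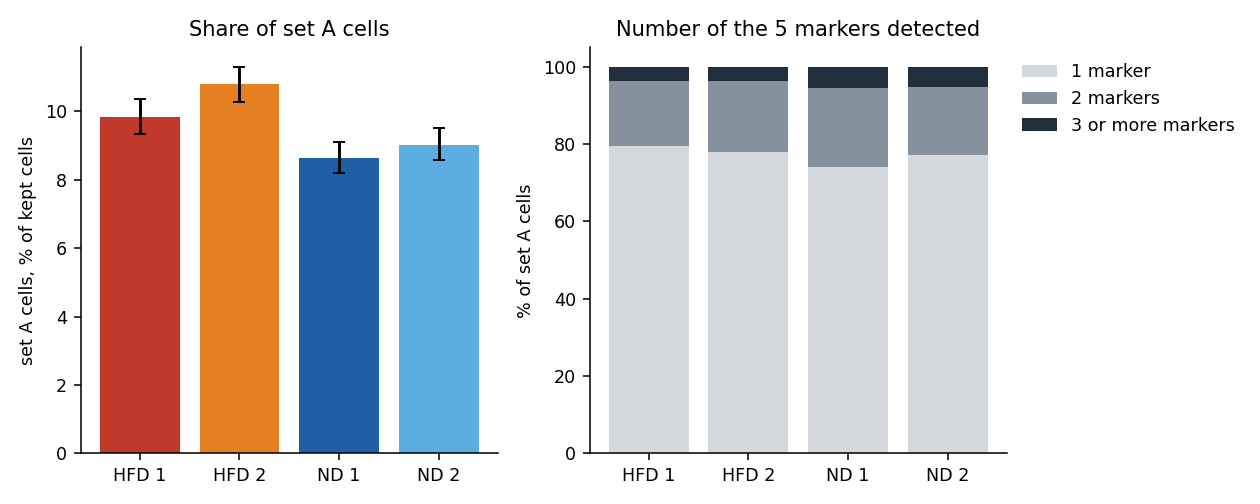
Left: set A cells as a percentage of kept cells in each library, with exact 95% binomial intervals as bars. Right: percentage of set A cells in which 1, 2, or 3 or more of the 5 markers were detected. The HFD bars are higher on the left (9.84% and 10.8% against 8.64% and 9.03%), and their dark segments of 3 or more markers are shorter on the right (3.68% in both against 5.54% and 5.16%).

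Genes that the choice did not use differed in level with the number of markers a member carried. That number went with depth, with median UMIs per library of 2314 to 2797 in cells with 1 marker, 10448 to 11641.5 with 2 and 6983 to 13305.5 with 3 or more. Levels are given in CPM, the gene's UMIs scaled to a fixed total over the pooled cells, as the mean of the 4 libraries and with no test. Dazl, which encodes a germ-cell RNA-binding protein that promotes translation, averaged 133 CPM in cells with 1 marker and 1087 CPM in cells with 3 or more, with 931 to 1283 CPM over the libraries. In set B cells Dazl averaged 66.7 CPM. The axis protein gene Sycp3 went from 469 to 1655 CPM, and the transverse filament gene Sycp1 from 425 to 1590 CPM. Tex12, of the central element, went from 85.6 to 284 CPM, and Mov10l1, an RNA helicase of the piRNA pathway, from 87.9 to 357 CPM.

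The replication helicase gene Mcm3 stood at 11.0 CPM in cells with 1 marker and 61.3 CPM in cells with 3 or more. The meiotic-entry regulator Stra8 stood at 3.96 and 15.8 CPM. Genes that rise toward pachytene ran in reverse. The testis lactate dehydrogenase Ldhc averaged 8021 CPM in cells with 1 marker, 4680 CPM in cells with 3 or more and 9527 CPM in set B cells. Adam3, a sperm surface protein gene, averaged 383 CPM and 220 CPM in the same 2 groups of set A cells and 416 CPM in set B cells. By these genes, which are a selection, the cells with 1 marker lay nearer to set B cells than the cells with 3 or more markers did. Not every gene ran so. The mitochondrial ribosomal RNA mt-Rnr2 averaged 5280 CPM with 1 marker, 1825 CPM with 3 or more and 1257 CPM in set B cells.

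**Figure D2:**
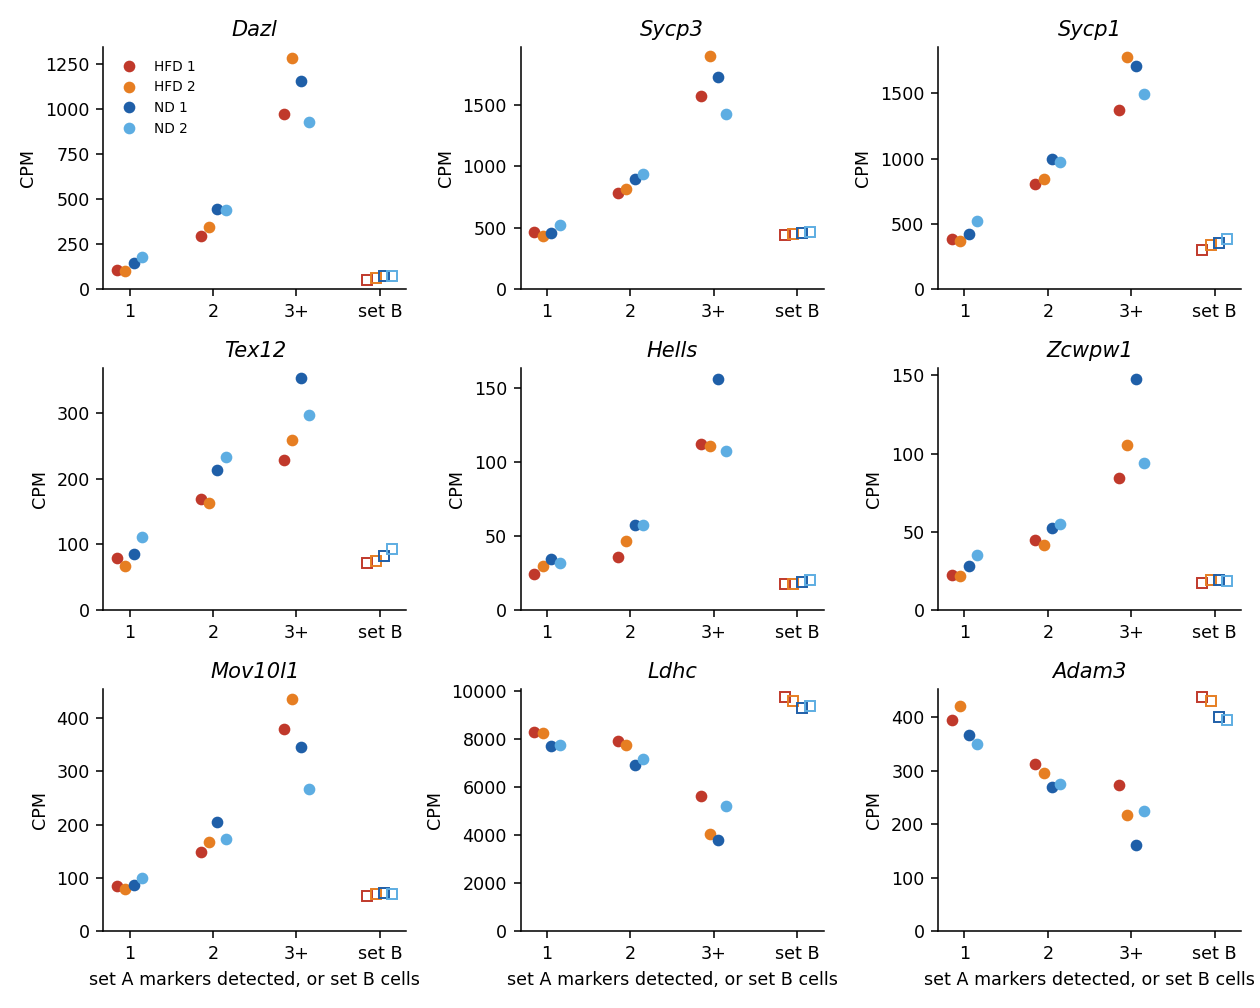
Level in CPM (linear axes from 0) of 9 genes in set A cells with 1, 2, or 3 or more markers (filled circles) and in set B cells (open squares), 1 point per library. Dazl, Sycp3, Sycp1, Tex12, Hells, Zcwpw1 and Mov10l1 are highest in cells with 3 or more markers, and Ldhc and Adam3 are lowest there.

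A ranking of the genes outside the 7 sets by the ratio of their level in set A cells to the highest of the other sets placed Dazl first, at 307 CPM in set A against 66.7 CPM in set B. Next came Ncl, encoding the nucleolar protein nucleolin, at 173 against 54.1 CPM. The mitochondrial ribosomal RNA mt-Rnr2 was at 3633 CPM, and it was higher in cells with 1 marker (5280 CPM) than in cells with 3 or more (1825 CPM). Gml2 and Gml, neighbouring genes on chromosome 15 whose reads may be shared between close copies, were at 130 and 201 CPM. Six6os1 of the central element, listed in the files as 4930447C04Rik, was at 92.4 against 35.9 CPM. The Leydig cell enzyme gene Cyp17a1 was also among the 15 genes, at 53.6 CPM in set A cells, 75.3 CPM in those with 1 marker and 22.3 CPM in those with 3 or more. That last mean rests on ND 2 at 68.3 CPM, with HFD 1, HFD 2 and ND 1 at 8.25, 5.28 and 7.52 CPM.

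The X chromosome is transcribed in leptotene and zygotene, silenced in pachytene and transcribed in part again in spermatids. X-linked UMIs were 0.264% to 0.349% of all UMIs in set A cells, 0.0847% to 0.104% in set B cells and 0.875% to 0.937% in set D cells, chosen by genes of early round spermatids. When the members were divided into tertiles of 1839 cells by their set B score, the X-linked share was 0.606% to 0.863% in the lowest, 0.384% to 0.449% in the middle and 0.123% to 0.156% in the highest tertile. The ranges of neighbouring tertiles did not overlap. The X-linked genes with the most UMIs in set A cells were Tsga8 (4913 UMIs) and Akap4 (3487 UMIs), both genes of spermatids, and the protamine gene Prm2 averaged 5162 CPM in the lowest tertile and 1551 CPM in the highest. The part of spermatid RNA in the X-linked share was not tested. In cells with 3 or more markers the share was 0.404% to 0.516%, with 2 markers 0.186% to 0.273% and with 1 marker 0.286% to 0.377%. It thus did not rise steadily with the number of markers.

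The X-linked share was lower in both HFD libraries, at 0.278% and 0.264%, than in ND 1 at 0.349% and ND 2 at 0.299%. Within set A the diets overlapped in cells with 1 marker, at 0.319% and 0.286% in HFD and 0.377% and 0.317% in ND. They also overlapped in cells with 3 or more markers. In cells with 2 markers and in each tertile of set B score both HFD libraries were below both ND libraries. The same held in sets B, C, D and F and in cells of no set, and the diets overlapped in sets E and G. The summed level of the 4 set D markers in set A cells was 74.4 and 65.9 CPM in HFD and 82.5 and 81.9 CPM in ND. That of the 4 set F markers overlapped, at 1381 and 1115 CPM in HFD and 1345 and 1320 CPM in ND. The median log2 changes of the set D, E and F markers were -0.18, -0.20 and -0.04, and none of these markers was called. Their part in the difference was not tested. The difference of the means was -0.0530 percentage points, with a two-sided exact permutation p of 0.333, the smallest that 2 against 2 libraries can give. Of 413 X-linked genes tested 13 changed (3.15%, beside 5.96% of all genes tested), and 12 fell (2.91%, beside 2.34%), shares below and near those of all genes. The median log2 change of all 413 was -0.25, against -0.01 for all genes tested. Those that fell included Ndufa1, a subunit gene of respiratory complex I, by 0.32 (SE 0.07, edgeR adjusted p = 0.0131), and Scml2, a germline Polycomb protein gene, by 0.70 (SE 0.16, edgeR adjusted p = 0.0184). In set B cells the changes of Ndufa1 and Scml2 were -0.11 and -1.56. In CPM scaled to the tested genes with TMM factors (edgeR's correction for library makeup), Scml2 had a mean of 15.9 CPM. This was under the 20 CPM set for ranked genes. On that scale Ndufa1 stood at 64.3 and 65.1 CPM in HFD and at 81.8 and 80.2 CPM in ND.

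**Figure D3:**
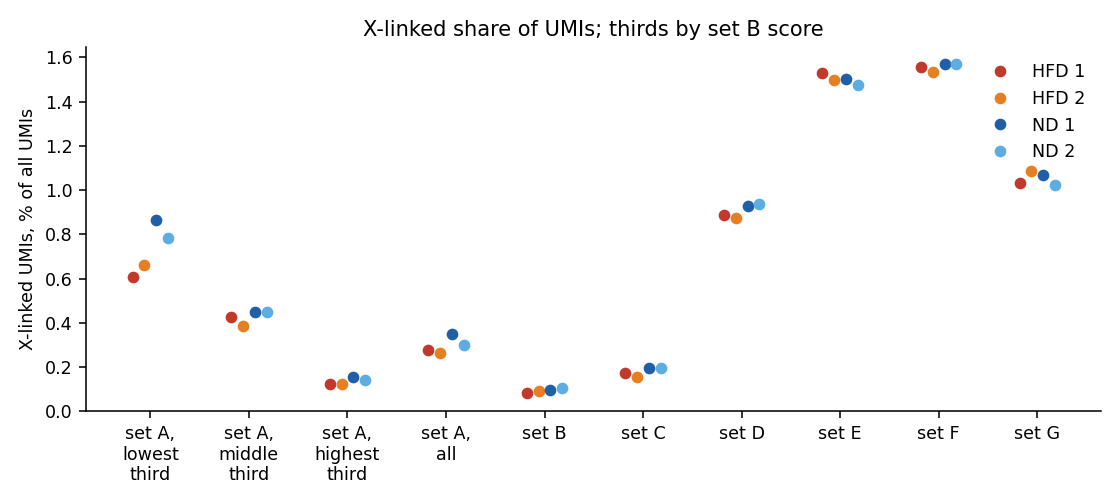
X-linked UMIs as a percentage of all UMIs, 1 point per library, in the tertiles of set A cells by set B score, in all set A cells and in sets B to G. Set A cells fall from 0.606% to 0.863% in the lowest tertile to 0.123% to 0.156% in the highest, next to 0.0847% to 0.104% in set B.

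The share of members in the highest tertile of set B score is given by library as a description, since that score took part in the choice of members. HFD 1 was at 31.1% and HFD 2 at 34.9%, ND 1 at 31.9% and ND 2 at 35.2%, so the diets overlapped. The difference was -0.552 percentage points, and -3.22 with cells thinned to 2000 UMIs. The thinning left out 254 and 342 members in HFD 1 and HFD 2 and 416 and 412 in ND 1 and ND 2. The second value is thus from fewer cells, with more of them lost in ND. The tertiles differed in depth, with medians of 2019 to 2693 UMIs in the lowest and 9442.5 to 10151.5 in the highest. The median depth was 3234 and 3245 UMIs per cell in HFD and 2901.5 and 2956 in ND, a difference of 310.75 UMIs with an exact permutation p of 0.333.

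Diet comparison of single genes used UMIs summed over the set A cells of each library, 7924268 to 9819161 per library. Of 15651 genes tested, 933 (5.96%) changed at an adjusted p under 0.05 in edgeR's quasi-likelihood test, 567 higher (3.62%) and 366 lower (2.34%) in HFD. The median size among the 933 was 0.35 on the log2 scale. The estimates of 744 were beyond 1.2-fold, of 183 beyond 1.5-fold and of 59 beyond 2-fold. A stricter test, for changes beyond 1.2-fold, was passed by 25 genes. The split between directions depended on the settings, at 354 higher and 698 lower where the tertiles counted equally, 29 higher and 59 lower where each cell did, 1132 higher and 1142 lower with z-scores taken within each library, and 225 higher and 49 lower with DESeq2. Without HFD replicate 1 the count was 499, and without HFD replicate 2 it was 438 higher and 436 lower. In the following, CPM are scaled to the tested genes with TMM factors (edgeR's correction for library makeup). Plain CPM, where named, are scaled to all UMIs of the pooled cells. Whether fewer cells of a stage or less RNA per cell lay behind a change cannot be told apart in such sums.

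Among the genes with the largest rises were Ptpn2 and Psmg2, neighbours on chromosome 18. Ptpn2, a tyrosine phosphatase that dampens JAK-STAT signalling (67665511 to 67724595), stood at 44.2 and 43.2 CPM in HFD and at 21.7 and 18.9 CPM in ND. Psmg2, a chaperone of proteasome assembly (67641599 to 67654162), stood at 84.1 and 95.9 CPM in HFD and at 49.3 and 47.3 CPM in ND. Neither gene's groups overlapped. Ptpn2 rose by 1.11 (SE 0.10, edgeR adjusted p = 1.5e-05) and Psmg2 by 0.90 (SE 0.08, edgeR adjusted p = 1.5e-05) on the log2 scale. Both were also higher in set B cells, by 0.93 and 0.95.

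Ddit4l, an inhibitor of mTOR signalling on chromosome 3, stood at 59.1 and 50.3 CPM in HFD and at 32.0 and 28.5 CPM in ND, and it rose by 0.85 (SE 0.10, edgeR adjusted p = 0.00016). The protein-coding gene 3110070M22Rik rose by 0.64, from 107 and 111 CPM in ND to 169 and 171 CPM in HFD. The other 8 genes of this rank rose by 0.58 to 0.73. They were Art1, an ADP-ribosyltransferase gene, Tmed6, of the p24 family of vesicle cargo proteins, Cc2d2b, 1700069L16Rik, and 4 transcripts annotated as non-coding, 4930556C24Rik, 4930533D04Rik, 4930570D08Rik and 4930500F10Rik. The last of these is annotated antisense to another gene. The calls of Art1, Tmed6 and 4930570D08Rik were lost without ND replicate 2. With each cell weighted equally, only 4930556C24Rik and 4930533D04Rik of these 8 kept their call in limma. With members of at least 2 markers, only 4930556C24Rik, Art1 and Cc2d2b of them kept it in edgeR.

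Of the 12 genes ranked by the size of their fall, 4 are of steroid-making Leydig cells or their hormone. Star, which carries cholesterol into mitochondria, stood at 8.65 and 17.5 CPM in HFD and at 31.1 and 29.4 CPM in ND and fell by 1.18 (SE 0.18, edgeR adjusted p = 0.0017). Cyp17a1 fell by 0.87, Insl3, the Leydig cell peptide hormone, by 0.81, and Hsd3b6, a steroid dehydrogenase, by 0.75. Sparc, Vcam1, Ptgds, Fads2 and Clu, all expressed in somatic cells, fell by 0.64 to 0.85.

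A small number of members carried somatic markers, and the levels without them are given as a description. Members with at least 3 of 6 Leydig markers numbered 17 and 27 in the HFD libraries and 25 and 33 in the ND libraries, and they held 76.5% to 91.3% of the Leydig UMIs of all set A cells. The summed level of the 6 markers was 118 and 168 plain CPM in HFD and 270 and 229 plain CPM in ND, and none was at 0 in a library. After members with 3 or more markers of a Leydig, Sertoli, macrophage, lymphocyte or fibroblast and vessel list were left out (30, 42, 45 and 46 cells), Star was at -0.34, Cyp17a1 at -0.22, Insl3 at 0.49 and Hsd3b6 at 0.26. These 4 genes are in the Leydig list that chose the cells to leave out, so the choice itself lowered their levels and their values then show nothing on where their RNA came from. Sparc, Vcam1, Ptgds, Fads2 and Clu are in none of those lists, and they missed the threshold at -0.19, -0.38, -0.11, -0.14 and -0.25, with Ptgds at an edgeR adjusted p of 0.683. The part of somatic cells or their RNA in these falls was not tested. The call of Insl3 was also lost without ND replicate 1. Over all genes 752 changed then, 712 of them among the 933.

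The other 3 genes of that rank kept their fall without the somatic-marker members. Prss50, a testis protease gene, stood at 17.9 and 23.6 CPM in HFD and at 35.6 and 35.5 CPM in ND and fell by 0.77 (SE 0.12, edgeR adjusted p = 0.0015). Zfp322a, a zinc finger protein gene, fell by 0.68 and Esco2, which acetylates cohesin during DNA replication, by 0.67. Without those members the values were -0.77, -0.69 and -0.67.

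**Figure D4:**
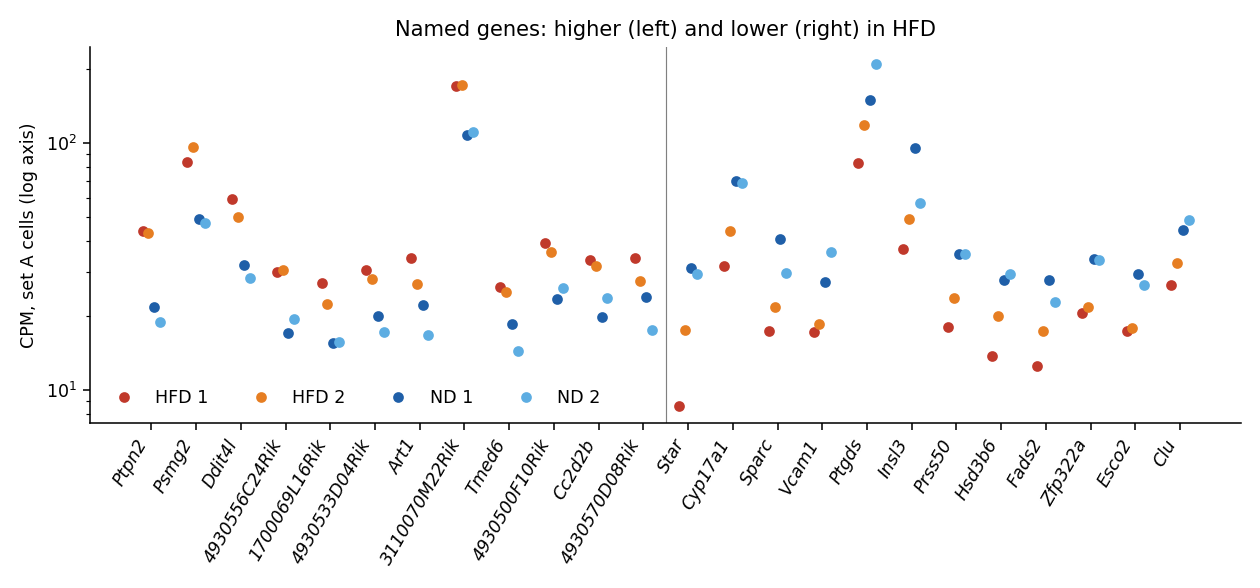
Level in set A cells (CPM, log axis) of the 12 genes with the largest rises and the 12 with the largest falls that passed the naming rule, 1 point per library. HFD and ND points do not overlap for any of the 24, since the rule required it.

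In the 9 lists from meiotic entry to premeiotic replication, 15 of 100 measured genes fell in HFD and none rose, beside 2.34% lower and 3.62% higher over all genes. Without the 4 genes of set A among them, which chose the cells, 14 of 96 fell. Of the 7 measured genes for meiotic entry and RNA control, 2 fell, and the median change was -0.24 against -0.01 over all genes tested. Dazl (chromosome 17, 50279395 to 50293636) stood at 239 and 267 CPM in HFD and at 361 and 363 CPM in ND. It fell by 0.52 (SE 0.06, edgeR adjusted p = 0.00015), and its change in set B cells was -0.33. Taf4b, a germ-cell subunit of the TFIID complex, fell by 0.60 (edgeR adjusted p = 0.021), and its call was lost without ND replicate 1. Meioc, the gene that chose most members, stood at 335 and 344 CPM in HFD and at 339 and 344 CPM in ND.

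Of the 6 genes of the synaptonemal complex central region 5 fell and none rose, with a median of -0.28. Over all genes tested 2.34% were lower and 3.62% higher. Sycp1 (chromosome 3, 102818499 to 102936100) stood at 618 and 640 CPM in HFD and at 768 and 802 CPM in ND and fell by 0.32 (SE 0.05, edgeR adjusted p = 0.0024). Tex12 (chromosome 9, 50556819 to 50561325) stood at 124 and 117 CPM in HFD and at 160 and 177 CPM in ND and fell by 0.49 (SE 0.07, edgeR adjusted p = 0.00052). Six6os1 fell by 0.31, Syce3 by 0.26 and Syce2 by 0.24. Syce1 had a change of 0.14 that did not pass the test. The calls of Sycp1 and Tex12 held without each library in turn. The call of Syce2 was lost with each of the 4 libraries left out in turn, that of Syce3 without either HFD library, and that of Six6os1 without HFD replicate 1 or ND replicate 1. The list's median was between -0.41 and -0.24 under the 22 alternatives. In set B cells its median was -0.14, and 2 of its genes were called.

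The DNA before the start is shown for the 3 central-region genes whose window holds the E-box CACGTG, with the E-box in capitals. These were picked by that match, and shared control of the genes was not tested. The sequences are the 250 bases before each start on the gene's strand, from RefSeq on GRCm38.p6. Sycp1 is at chr3:102936101-102936350, Tex12 at chr9:50561269-50561518 and Six6os1 at chr12:72917766-72918015, all on the minus strand. The starts are those of RefSeq, and by the GENCODE coordinates used elsewhere the Six6os1 window (gene at chromosome 12, 72881109 to 72940774) lies inside the gene and that of Tex12 overlaps the 5′ end of the gene.
Sycp1: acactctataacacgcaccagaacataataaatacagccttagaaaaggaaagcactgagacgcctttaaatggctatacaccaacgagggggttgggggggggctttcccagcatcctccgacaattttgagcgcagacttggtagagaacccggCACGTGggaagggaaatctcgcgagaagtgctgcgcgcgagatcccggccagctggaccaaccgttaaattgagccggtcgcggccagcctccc
Tex12: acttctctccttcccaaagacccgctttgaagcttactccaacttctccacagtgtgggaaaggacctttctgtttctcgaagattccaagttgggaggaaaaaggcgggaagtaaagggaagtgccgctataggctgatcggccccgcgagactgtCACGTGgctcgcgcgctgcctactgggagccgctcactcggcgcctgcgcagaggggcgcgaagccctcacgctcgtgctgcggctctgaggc
Six6os1: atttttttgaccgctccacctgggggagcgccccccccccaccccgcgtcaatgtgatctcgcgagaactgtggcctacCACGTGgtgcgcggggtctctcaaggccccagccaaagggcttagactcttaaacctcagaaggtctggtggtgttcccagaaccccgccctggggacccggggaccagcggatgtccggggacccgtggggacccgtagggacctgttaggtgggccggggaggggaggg
The E-box lay 94 bases before the start of Sycp1, 93 before that of Tex12 and 171 before that of Six6os1, counted from its first base. It was in none of the other windows searched, those of Syce1, Syce2, Syce3, Dazl, Zcwpw1, Dmc1, Prss50 and Meioc, and in 6.05% of the 27025 windows of that length. The 5 motifs searched on both strands were this one, AACNG (74.1% of windows), GGGCGG (32.9%), TTCCCGC (3.84%) and TGACGTCA (1.62%). TTCCCGC was in the windows of Tex12 and Meioc, GGGCGG in those of Syce2, Six6os1, Dmc1 and Meioc, and AACNG in those of all 6 central-region genes, Zcwpw1 and Meioc. A match is a description of letters and not a bound site.

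The falls of these genes were seen beside a smaller part of cells with 3 or more markers in HFD (3.68% and 3.68% against 5.54% and 5.16%). Values within each group of cells are given here in plain CPM and without a test. In cells with 1 marker, Dazl was at 104 and 103 CPM in HFD and at 146 and 179 CPM in ND. In cells with 2 markers it was at 297 and 343 against 445 and 442 CPM. In cells with 3 or more it was at 973 and 1283 against 1159 and 931 CPM, so there the diets overlapped. Sycp1 likewise did not overlap in cells with 1 marker (386 and 367 against 426 and 522 CPM) and overlapped in those with 3 or more (1373 and 1779 against 1714 and 1496 CPM). Tex12 was lower in both HFD libraries in all 3 groups of cells, with 228 and 259 against 353 and 297 CPM in those with 3 or more.

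On the chromosome axis 1 of 10 measured genes fell, Sycp3, by 0.19 (edgeR adjusted p = 0.041), and that call was lost without HFD replicate 1, HFD replicate 2 or ND replicate 2. Hormad1, which marks unsynapsed axes, had a change of -0.10 and the cohesin gene Smc1b one of -0.02. Among 9 measured genes for break formation and hotspots 2 fell. Both counts stand beside 2.34% lower over all genes tested, and 1 call in a list of 10 is no result about the list. Zcwpw1, a reader of the marks that PRDM9 writes, stood at 35.6 and 34.7 CPM in HFD and at 49.0 and 49.4 CPM in ND and fell by 0.49 (SE 0.08, edgeR adjusted p = 0.0034). Hells, a chromatin remodeller that opens hotspots with PRDM9, fell by 0.44. Spo11, the enzyme that makes the breaks, had a change of 0.06.

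Of 20 measured genes of strand exchange and repair 2 fell, the single-strand binding subunit gene Rpa2 by 0.40 and Dmc1 by 0.50. Dmc1 belongs to set A, so its level is partly set by the choice of cells. Of 11 genes of break signalling H2afx, the histone variant phosphorylated at breaks, fell by 0.31, from 197 and 217 CPM in ND to 163 and 171 CPM in HFD. Of 13 crossover genes Ccnb1ip1, whose protein marks crossover sites, fell by 0.42. Of 17 genes of premeiotic replication Mcm4 fell by 1.09 at a level of 1.68 to 5.07 CPM. The counts of these lists also stand beside 2.34% lower over all genes tested. A single call in a list of 11, 13 or 17 is no result about the list. None of the 7 genes of telomere attachment passed the adjusted threshold in edgeR, DESeq2 or limma-voom, and 4 had an unadjusted p under 0.05 in edgeR. None of the 12 genes of the piRNA pathway passed it with these tools, and 5 had an unadjusted p under 0.05 in edgeR. These unadjusted counts stand beside 3458 of 15651 over all genes tested. The calls of Hells, Dmc1 and Mcm4 were lost without HFD replicate 1 or ND replicate 1, that of Rpa2 without ND replicate 1, that of H2afx without HFD replicate 1, and that of Ccnb1ip1 without HFD replicate 1 or ND replicate 2. With each cell weighted equally, 6 of the 15 meiotic genes kept their call in limma (Dazl, Sycp1, Tex12, Six6os1, Zcwpw1 and Hells). Some of the others changed as much as before, with Taf4b at -0.75 (limma adjusted p = 0.082) and Sycp3 at -0.22 (limma adjusted p = 0.087). Changes of others were smaller, with Syce2 at -0.21 (limma adjusted p = 0.186), Rpa2 at -0.33 (limma adjusted p = 0.261) and H2afx at -0.21 (limma adjusted p = 0.204).

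Genes of pachytene onset went the other way: 3 of 9 rose and none fell, with a median of 0.11, beside 3.62% higher and 2.34% lower over all genes. Ldhc rose by 0.19, from 6870.1 and 7272 CPM in ND to 8149 and 7947 CPM in HFD (SE 0.05, edgeR adjusted p = 0.046). Tbpl1, a germ-cell relative of the TATA-binding protein, rose by 0.18 and Adam3 by 0.27. All 3 calls were lost without HFD replicate 2, those of Ldhc and Tbpl1 also without HFD replicate 1, and that of Tbpl1 without ND replicate 1. Without the somatic-marker members Ldhc was at 0.16 (edgeR adjusted p = 0.082) and Tbpl1 at 0.16 (edgeR adjusted p = 0.087). Markers of sets B and C took part in the choice of members, so their values are a description: the log2 change was 0.43 for Pou5f2, 0.27 for Aurka, 0.25 for Ccna1 and -0.28 for Pou2f2.

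**Figure D5:**
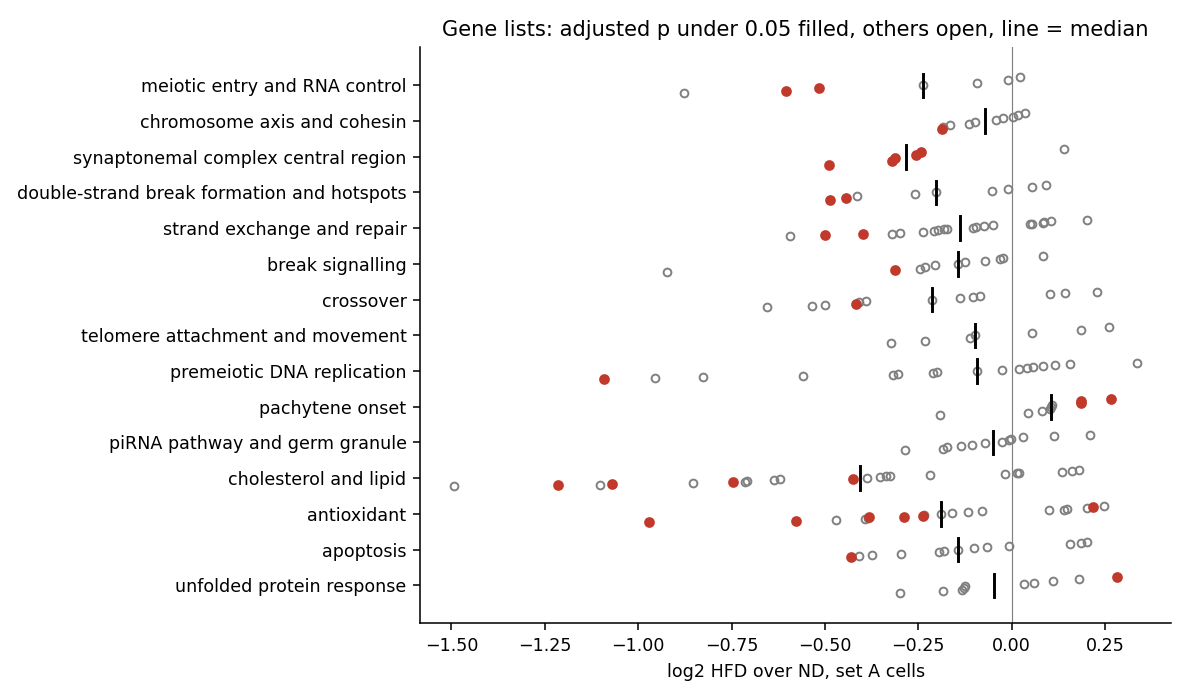
Log2 change (HFD over ND) in set A cells of the measured genes of 15 lists, 1 circle per gene, filled where the edgeR adjusted p was under 0.05, with a line at each list's median. The central region has 5 filled circles left of 0 and a median of -0.28, and pachytene onset has 3 filled circles right of 0 and a median of 0.11.

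Of 22 cholesterol and lipid genes 4 fell and none rose, with a median of -0.41, beside 2.34% lower and 3.62% higher over all genes. Among them were Hmgcs1 of cholesterol synthesis, by 0.42, and the desaturases Fads2 and Scd2, by 0.75 and 1.07. The call of Hmgcs1 was lost without ND replicate 2. After the somatic-marker members were left out none of 18 measured genes passed the adjusted threshold in edgeR, 9 had an unadjusted p under 0.05, and the median was -0.18. Over all genes tested 3064 of 15222 then had an unadjusted p under 0.05. Of 19 antioxidant genes 5 fell and 1 rose. The peroxiredoxin gene Prdx1 fell by 0.38 (SE 0.06, edgeR adjusted p = 0.0017), from 195 and 204 CPM in ND to 149 and 157 CPM in HFD, and by 0.35 without those members. With each cell weighted equally it was at -0.35 (limma adjusted p = 0.057), and no other gene named from this list, the lipid list or pachytene onset kept its call either. Prdx3, Txn1, Prdx4 and Sod1 fell by 0.97, 0.58, 0.29 and 0.24, and Prdx6 rose by 0.22. Without the somatic-marker members Prdx3 was at -0.37 (edgeR adjusted p = 0.582) and Txn1 at -0.21 (edgeR adjusted p = 0.594). Sod1 and Prdx6 missed the threshold there with values near those before, at -0.21 (edgeR adjusted p = 0.060) and 0.20 (edgeR adjusted p = 0.054). The call of Prdx4 was lost with each of the 4 libraries left out in turn. Those of Prdx3 and Txn1 were also lost without HFD replicate 1 or ND replicate 1, and those of Sod1 and Prdx6 without HFD replicate 1, HFD replicate 2 or ND replicate 1. These counts, and the single genes called in the next lists, stand beside 5.96% called over all genes, and 1 call in a list of 10 or 13 is no result about the list. Bax was the 1 of 13 apoptosis genes called and fell by 0.43, a call lost without HFD replicate 1 or ND replicate 1. Ddit3, a stress-induced transcription factor gene, was the 1 of 10 genes of the unfolded protein response called, and rose by 0.28 from 208 and 215 CPM to 262 and 254 CPM, a call lost without HFD replicate 1.

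The diet change of each gene was set against that in set B cells of the same libraries. In set B cells 681 of 18356 genes (3.71%) changed. No gene of 19681 (0%) differed in its diet change between set A and set B at an adjusted p under 0.05 in edgeR's quasi-likelihood test with the library as a block, and 1467 did at an unadjusted p under 0.05. With limma-voom 12 genes differed. The medians of the 9 lists from meiotic entry to premeiotic replication ran from -0.28 to -0.07 in set A cells. In set B cells they ran from -0.14 to -0.004, beside -0.01 over all genes tested there. For Dazl the change was -0.52 in set A and -0.33 in set B cells, and for Zcwpw1 it was -0.49 and 0.01. The smallest adjusted p over all genes was 0.171, that of Zcwpw1.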

How the data were processed

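Single-cell RNA sequencing of testis gave 4 deposited matrices of raw UMI counts per gene and barcode, not normalised per the file headers and the values; gene and barcode lists give other identifiers as deposited. The authors' build was mm10, per the submitters' processing notes; aligner and annotation are not given in the sources used here. All 55450 gene identifiers matched GENCODE M21, which gave coordinates. A dense table per library was not used here.

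A barcode was kept if it had 200 genes or more and if no more than 20% of its UMIs were mitochondrial, leaving 13543, 14355, 15248 and 14581 cells in HFD 1, HFD 2, ND 1 and ND 2. Scores were means of log1p counts per 10000. Scrublet (scanpy 1.11.5) doublets were left out only as an alternative: it called 199 members. UMIs of members were summed per library and tested with edgeR 4.0.16 (filterByExpr, TMM, quasi-likelihood, Benjamini-Hochberg over all genes tested), in R 4.3.3; SE is the log2 change over the square root of F. On simulated data for this comparison, 28% of 50 genes changed 1.2-fold and 92% of 50 changed 1.5-fold were recovered. The changed genes were drawn only from those with higher expected counts, so recovery at low levels was not measured.

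Members and lists were chosen with earlier results of these data known. Named were up to 12 genes in each direction with adjusted p under 0.05, no overlap of the diets and a mean of at least 20 CPM, by size of change, and every list gene called; 1 of these is not reported here. The sources used here do not say whether replicate numbers pair the samples, and the samples were treated as unpaired. Alternatives covered gates, depth, doublets, tools, weights and each library left out; those on marker number, somatic-marker members and equal cells were chosen after seeing the data.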

Additional observations from a re-analysis of the deposited data

How the results depend on the processing

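The share of set A cells was higher in HFD under each alternative tested with edgeR, while the share of cells with 3 or more markers was lower in HFD (HFD minus ND, -0.0931 percentage points of kept cells). Its log2 ratio missed the threshold at a z-score limit of 1.5 (0.14), with a floor of 2000 UMIs (0.26), with at least 2 markers (0.034) or at least 2 marker UMIs (0.19), and by the exact permutation test (0.22), which cannot pass with 2 libraries per diet. Leaving out 1 library gave 0.16 to 0.29, and the call was lost without ND replicate 1. The 933 changed genes became 482 at a z-score limit of 1.5, 2274 with z-scores taken within each library and 570 with at least 2 markers. They became 25 in the test for changes beyond 1.2-fold and 274 with DESeq2 (of 5334 genes with an adjusted p). With each cell weighted equally there were 88 and with the replicate number as a block 1500, and the cause was not tested. The sources used here do not say whether the numbers pair the samples. Deviations of same-numbered libraries had r = -0.011, but with 2 libraries per diet both pairs give the same r, so it cannot decide this. Leaving out 1 library gave 499 (without HFD replicate 1) to 919, of which 400 to 586 were among the 933. The count of 0 genes for the difference from set B became 12 with limma-voom, 36 without doublets and 0 to 62 without 1 library. The share in the highest tertile differed by -2.42 to 1.31 percentage points without 1 library, so its sign rests on which libraries are kept. Among the 53 genes that met the naming rule, 14 passed beyond 1.2-fold, 19 with each cell weighted equally, 18 of the 30 with an adjusted p in DESeq2, 34 without the somatic-marker members, where Insl3 (0.49) and Hsd3b6 (0.26), which helped choose those members, reversed, 34 without HFD replicate 1, 44 without HFD replicate 2, 37 without ND replicate 1 and 45 without ND replicate 2. At these depths and with 2 libraries per diet, 28% of 1.2-fold changes simulated in genes with higher counts were recovered. Libraries thinned to the smallest sum gave 857 calls.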

Other observations

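UMIs of genes known from later or other germ cells were also counted in set A cells. Transcripts of the protamines Prm1 and Prm2, which pack sperm DNA, averaged 2682 and 2547 CPM in set A cells and 1199 and 1018 CPM in set B cells. In the lowest tertile of set B score Prm2 averaged 5162 CPM and in the highest 1551 CPM. Uchl1, the only 1 of 6 listed markers of spermatogonia given here, averaged 28.6 CPM in set A and 13.3 CPM in set B cells. Its level was 49.8 CPM in the lowest tertile and 24.8 CPM in the highest. Spermatogonia were not among the classes of cells, so no level of theirs stands beside it. Prm1 and Prm2 averaged 51177 and 35612 CPM in set F cells, and 44989 and 67831 CPM in set G cells. These levels are in plain CPM. No test was made of them, and the part of free RNA in droplets was not tested.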
